A study of Mus musculus with 4 samples.

Results

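Smooth muscle cells of the mouse descending thoracic aorta were compared between a library of conditional Smad4 knockout mice (cKO) and a library of control mice. A barcode was taken as a smooth muscle cell when it held at least 500 genes, under 10% mitochondrial UMIs (unique molecular identifiers, 1 per captured transcript), at least 5 UMIs of Myh11, at least 20 UMIs of Acta2, and 0 UMIs of Ptprc, Pecam1 and Pdgfra, which mark leukocytes, endothelium and fibroblasts. This gate held 983 cells of the cKO and 792 cells of the control library. They were 1775 of the 11107 cells kept from these 2 libraries, and the whole series kept 25593 of 31081 barcodes. The summed UMIs of the gated cells were then compared gene by gene.

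The series profiled aortic cells of mice aged 16 to 20 weeks with a droplet 5′ single-cell RNA kit, in 4 libraries, 1 for each genotype in the arch and in the descending thoracic aorta. The cKO genotype was CNC-SMC-Cre;Smad4flox/flox;R26-tdT and the control genotype CNC-SMC-Cre;R26-tdT, so both carried the Cre driver and the tdT reporter, and the floxed Smad4 alleles set them apart. The name of the driver is taken here to mean smooth muscle of cardiac neural crest origin, whereas smooth muscle of the descending aorta is known to come mainly from somites. Which gated cells the driver had acted in was not analysed here, and the sources used here do not say from how many animals each library came.

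Smad4 is the shared partner of the receptor-activated Smad proteins and carries both TGF-beta and BMP signals into the nucleus. In the aortic media, smooth muscle cells both contract and build the wall, laying down elastin, fibrillar collagens and the enzymes that cross-link them, and TGF-beta signalling is known to drive much of that matrix programme. Cells also match their sterol and fatty acid synthesis to their needs through SREBP transcription factors, which switch on the genes of both routes together when sterols run short.

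Each genotype is a single library, so no test between genotypes could be made and no difference below has a replicate check. Cells of a library are not replicates, and every interval is a 95% interval that covers counting error only. Levels are in CPM, the UMIs of a gene per 1000000 UMIs of the gated cells, and differences are log2 ratios of cKO over control with a prior of 0.5 UMI. A gene counted as higher or lower when the ratio passed 1.5-fold (0.58 on the log2 scale), a size and not a test. Because sums were scaled to the total, fewer transcripts per cell and a larger share taken by other genes cannot be told apart.

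The gated cells were alike in depth between the libraries. Together they held 11404248 UMIs (cKO) and 10384031 UMIs (control), with medians of 11215 and 12565.5 UMIs and 3581 and 3920 genes per cell, and a median of 2.93% mitochondrial UMIs in each. They made up 16.7% (15.7 to 17.6) and 15.2% (14.2 to 16.2) of the kept cells. The libraries shared 67 cell barcodes, of which 1 lay in both gates. Xist was counted in the smooth muscle of both libraries (4410 and 3656 UMIs) and the Y-linked Ddx3y, Uty and Kdm5d in neither.

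Smooth muscle markers that the gate did not use were present in nearly all gated cells. Tagln, a calponin-related actin-binding protein, was found in 100% of gated cells of both libraries, with medians of 175 and 172 UMIs per cell, against a median of 1 UMI in leukocytes. Cnn1, Lmod1, Smtn and Itga8, all proteins of the contractile apparatus or its anchorage, were each found in 95.2 to 96.8% of gated cells. In leukocytes of the same libraries they were found in 5.56 to 15.2%. The T cell marker Cd3e had 0 UMIs in the gate and the endothelial Cdh5 had 23 and 12. The pericyte and resistance-vessel genes Rgs5 and Kcnj8 were present in 59.8 and 54.9%, and in 31.6 and 35.4% of gated cells, and the gate does not tell aortic smooth muscle from mural cells of small vessels.

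Few cells lay near the limits of the gate. In the cKO library 20 gated cells had 5 to 6 Myh11 UMIs and 13 cells with 3 to 4 fell outside, and in the control library these were 15 and 23. For Acta2, 15 and 22 gated cells had 20 to 24 UMIs and 17 and 20 cells with 15 to 19 fell outside. Many more cells were kept out only by a UMI of Ptprc, Pecam1 or Pdgfra, 571 in the cKO and 480 in the control library, and these were deeper, with medians of 14468 and 16170 UMIs. Within the gate the median cell held 39 and 38.5 Myh11 UMIs and 252 and 264 Acta2 UMIs.

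Smad4 itself differed little. It had 999 UMIs in cKO and 973 in control smooth muscle, or 87.6 and 93.7 CPM, a log2 ratio of -0.10 (-0.23 to 0.03). It was found in 605 cKO and 516 control cells. The ratio was 0.16 in fibroblast-gated cells of the same libraries and -0.12 in smooth muscle of the arch. A 5′ assay reads the start of the transcript, and the sources used here do not say which exons are floxed, so this level does not check the deletion.

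A gene was measured when its UMIs in the 2 libraries summed to at least 100. Of 10542 such genes, 135 (1.28%) were at least 1.5-fold higher and 261 (2.48%) at least 1.5-fold lower in cKO smooth muscle, which is 3.76% past 1.5-fold in either direction. The median log2 ratio was -0.04, 90% of genes lay between -0.43 and 0.30, and 59.0% lay below 0. At 2-fold the counts were 35 and 64, and at 4-fold 12 and 14. The plot of ratio against level shows that most genes past 1.5-fold were low, with a few abundant exceptions, among which were the matrix genes Eln, Sparc and Col3a1.

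**Figure D1:**
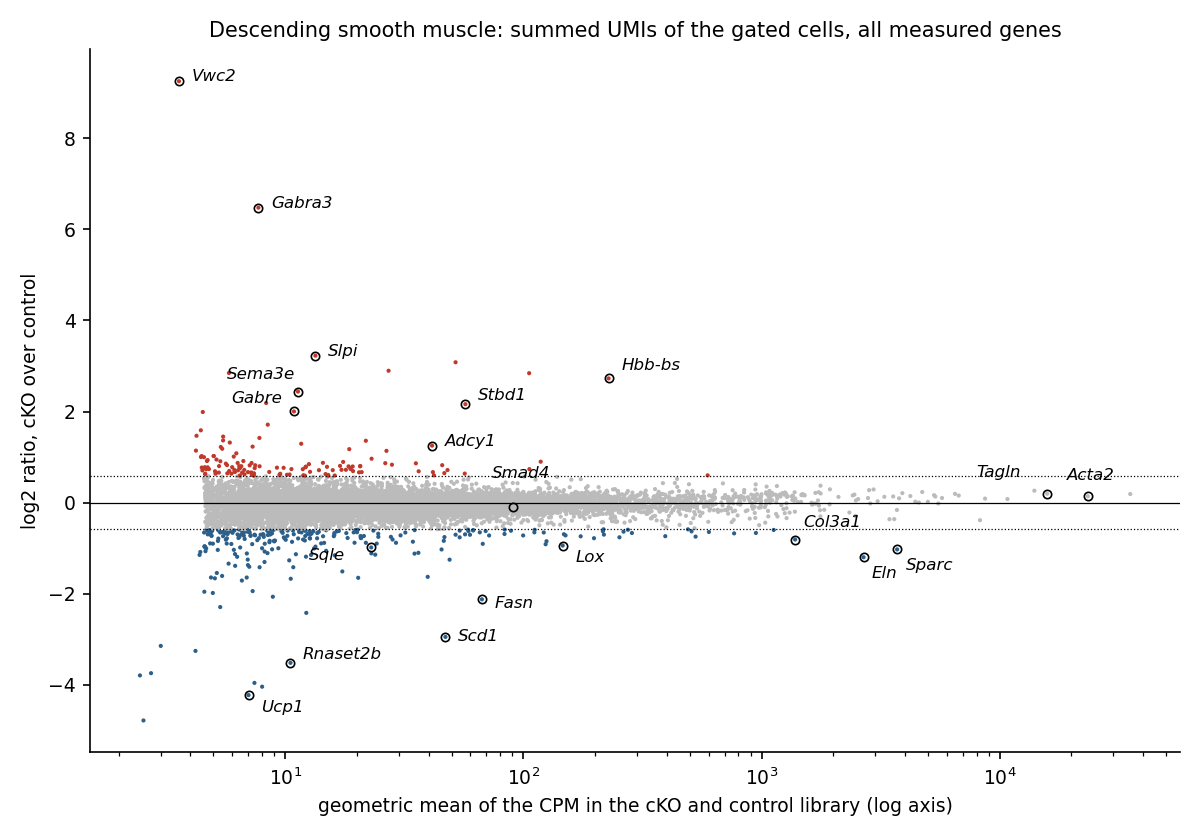
Log2 ratio of cKO over control (y axis) against the geometric mean CPM of both libraries (x axis, log scale) for each of 10542 measured genes of descending smooth muscle; red and blue points passed 1.5-fold (dotted lines) and circles mark labelled genes. The contractile genes Acta2 and Tagln lie near 0, Eln, Sparc and Col3a1 lie below the lower line at high levels, and Vwc2 and Gabra3 lie far above the others.

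Within the gate, the contractile programme stood at nearly the same level in both libraries. Cells with few Myh11 or Acta2 UMIs were left out by the gate, so these levels do not cover cells that had lost the programme. All 30 contractile genes of the list were measured, 1 was at least 1.5-fold higher (background 1.28%) and 0 lower (2.48%), counts near those shares. Their median log2 ratio was 0.08 beside -0.04 over all genes. The smooth muscle myosin heavy chain Myh11 stood at 3744 and 3406 CPM and smooth muscle actin Acta2 at 24622 and 22308 CPM, but both belong to the gate. Among contractile genes the gate did not use, Tagln stood at 16922 and 14781 CPM (0.20, 0.19 to 0.20), Cnn1 at 1619 and 1621 CPM (-0.00), the regulatory light chain Myl9 at 5487 and 5554 CPM (-0.02) and the myosin light chain kinase Mylk at 1590 and 1397 CPM (0.19). Myocd, the coactivator that drives this programme, had a log2 ratio of -0.15. The intermediate filament gene Des was the lowest of the list at -0.38 and Casq2, a calcium store protein, the highest at 0.59 with 169 and 102 UMIs. The ratio of Casq2 ran from 0.082 to 1.54 over the alternatives, so that this single call was not kept in all of them. In the arch, the same list had a median of -0.30, and 8 of its members were at least 1.5-fold lower there (14.2% of all genes were).

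The matrix programme stood lower in the cKO library, led by elastin. Eln (ENSMUSG00000029675), which encodes tropoelastin, the monomer of elastic fibres, stood at 1771 CPM in cKO and 4060 CPM in control smooth muscle, from 20197 and 42159 UMIs. The cKO level was the lower by 2.29-fold, a log2 ratio of -1.20 (-1.22 to -1.17). Sparc, a collagen-binding matricellular glycoprotein, stood at 2600 and 5293 CPM, from 29651 and 54965 UMIs, a log2 ratio of -1.03 (-1.05 to -1.01). Lox, the lysyl oxidase that cross-links elastin and collagen, stood at 106 and 203 CPM, a log2 ratio of -0.94 (-1.04 to -0.84). These 3 genes kept ratios of -1.24 to -1.07, -1.05 to -0.99 and -0.95 to -0.80 under every alternative of gate, filter, depth and scaling that was run.

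The lower levels of Eln and Sparc ran through the whole population of cells. When each cell was thinned to 5000 UMIs, leaving out 108 cKO and 85 control cells with fewer, the median cell held 6 Eln UMIs in cKO and 15 in control smooth muscle. The middle 50% of cells held 2 to 12 and 7 to 27. For Sparc the medians were 11 and 24, with the middle 50% at 7 to 17 and 16 to 34, so that the upper quartile of cKO cells lay near the lower quartile of control cells. Nearly all cells still made both transcripts: Eln was found in 89.5% (87.3 to 91.4) of thinned cKO and 93.2% (91.1 to 94.95) of control cells, against 6.49 and 9.75% of leukocytes. The cumulative plots of UMIs per cell show the Eln and Sparc curves set apart over their whole course, while the Tagln curves lie close and the cKO curve to the right, with medians of 79 and 70.

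**Figure D2:**
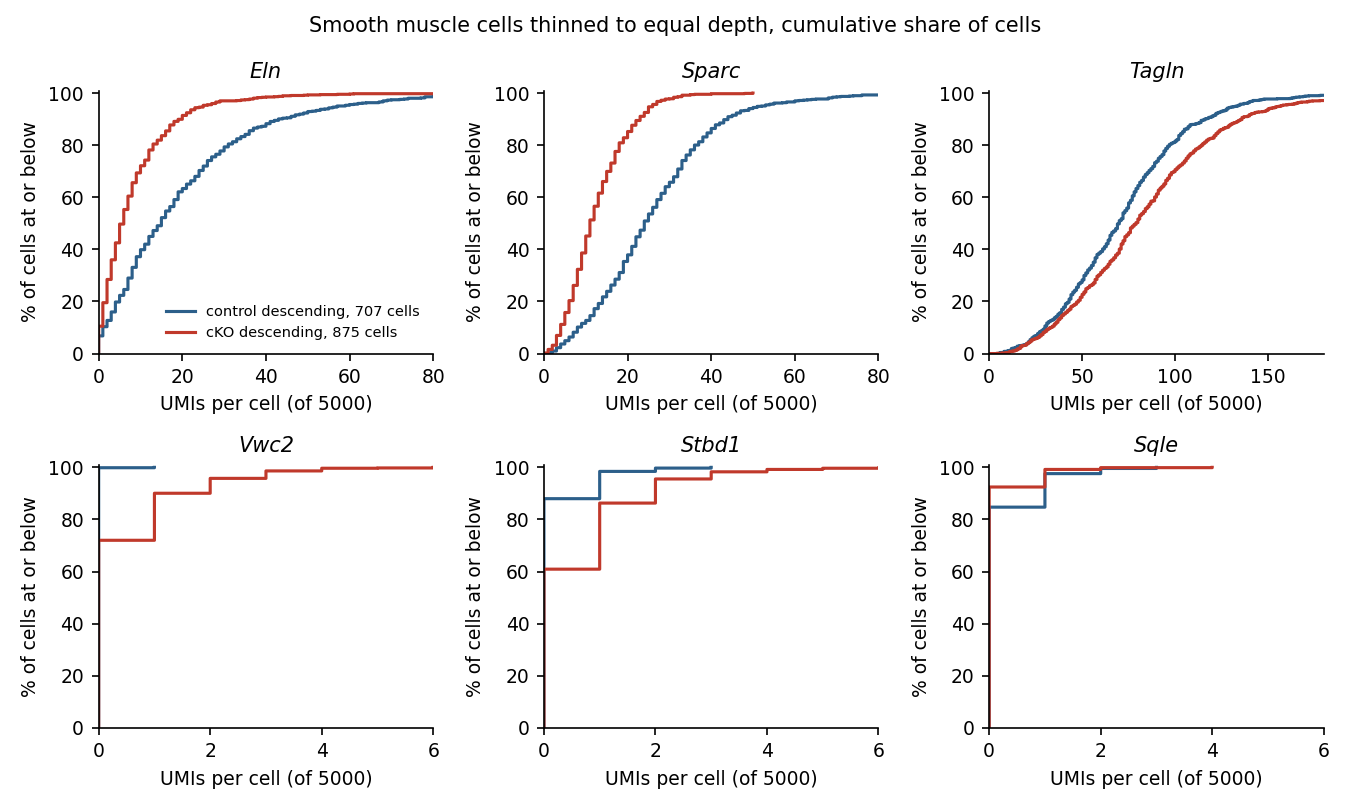
Share of cells (y axis, %) with at most the given number of UMIs (x axis, per cell thinned to 5000 UMIs) for 6 genes in 875 cKO (red) and 707 control (blue) descending smooth muscle cells. Eln and Sparc are shifted to lower counts in cKO cells, Tagln slightly to higher counts, Vwc2 and Stbd1 are found in more cKO than control cells, and Sqle in fewer.

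Elastin was 1 of 4 genes at least 1.5-fold lower among the 19 measured genes of elastic fibre assembly (background 2.48%). None was higher, 17 lay below 0 (59.0% of all genes did), and the median was -0.32. The other members past 1.5-fold were Lox (-0.94), Mfap4, a microfibril-associated protein (408 and 685 CPM, -0.75, -0.80 to -0.69), and Fbln1, fibulin-1 (85 and 170 UMIs in 26 and 37 cells, -1.13). Fbln1 had a ratio of -0.22 when cells with 1 UMI of Ptprc, Pecam1 and Pdgfra were admitted, and 1 cell of each library held 27 and 37 of its UMIs. Members within 1.5-fold lay closer to 0. Fibrillin-1, Fbn1, which forms the microfibril scaffold, stood at 215 and 286 CPM (-0.41), Fbln5 at 459 and 582 CPM (-0.34) and the cross-linking enzyme Loxl1 at 259 and 323 CPM (-0.32). The highest ratio of the list was that of Ltbp4, a latent TGF-beta binding protein, at 0.09 with 593 and 558 CPM.

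Of 19 measured collagen genes, 8 were at least 1.5-fold lower (background 2.48%) and 0 higher (1.28%). Their median was -0.44, and 18 lay below 0 (59.0% of all genes). Of the 8, 4 stayed past 1.5-fold under every alternative, and Col1a1, Col1a2, Col5a2 and Col15a1 did not. The fibrillar chains led by level: Col3a1 at 1046 and 1832 CPM (-0.81, -0.84 to -0.78), Col1a2 at 915 and 1385 CPM (-0.60, -0.63 to -0.56) and Col1a1 at 608 and 969 CPM (-0.67, -0.72 to -0.63). In cells thinned to 5000 UMIs the median cell held 4 Col3a1 UMIs in cKO and 7 in control smooth muscle. Col14a1, a fibril-associated collagen, had the lowest ratio at -0.91, the basement membrane chain Col4a5 stood at 195 and 330 CPM (-0.76), and Col15a1 had a ratio of -0.70. The main basement membrane chains Col4a1 and Col4a2 were closer, at -0.35 and -0.42. Among 24 measured proteoglycan and matricellular genes 6 were lower and 0 higher, with a median of -0.19. Sparc, Spon1 (44 and 126 UMIs, -1.64), Lum (64 and 117 UMIs), Acan, Tnc and Dcn made up the 6, of which Acan and Tnc did not stay past 1.5-fold under every alternative, while Sparcl1, the relative of Sparc, stood at 3112 and 2572 CPM (0.27, 0.25 to 0.30) and Fn1, fibronectin, at 1317 and 1022 CPM (0.36). The gelatinase Mmp2, which cleaves matrix, had 178 and 351 UMIs (-1.11).

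Fibroblast-gated cells of the same 2 libraries had ratios of their own for these genes. There Eln stood at 339 CPM in cKO and 811 CPM in control cells, a log2 ratio of -1.26, and so both levels were under those of smooth muscle. Lox had a ratio of -1.02, Col3a1 -0.88, Mfap4 -0.80, Col1a1 -0.78 and Sparc -0.70 in fibroblasts, and over that gate 2.42% of genes were at least 1.5-fold lower and 1.38% higher. Col14a1 and Col15a1 differed from this, with fibroblast ratios of -0.03 and 0.00. In endothelial-gated cells, where 4.68% of genes were lower and 3.23% higher, Eln had a ratio of -0.20, Lox 0.09, Col3a1 -1.07 and Sparc -0.66. Fibroblast markers also moved within the smooth muscle gate. Of 9 measured, 5 were lower (2.48% over all genes of the smooth muscle gate) and 1 higher (1.28%), with summed levels of 1510 and 2074 CPM, which include Col1a1, and Pdgfra at 0 by the gate. Their part in the matrix result was not tested. Without the cells of highest doublet score the ratios were -1.23 for Eln and -1.04 for Sparc.

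Promoters of 3 of these genes are shown because the fibrillar collagens and Sparc stood lower together and are known as genes that TGF-beta drives. The sequences are the 250 bases upstream of the start in RefSeq (GRCm38.p6), 5′ to 3′ on the strand of the gene, and capitals mark CAGACA on either strand (TGTCTG on the other), the core of the CAGA box that Smad complexes are known to bind.
Col3a1 (chr1:45311288-45311537, plus strand): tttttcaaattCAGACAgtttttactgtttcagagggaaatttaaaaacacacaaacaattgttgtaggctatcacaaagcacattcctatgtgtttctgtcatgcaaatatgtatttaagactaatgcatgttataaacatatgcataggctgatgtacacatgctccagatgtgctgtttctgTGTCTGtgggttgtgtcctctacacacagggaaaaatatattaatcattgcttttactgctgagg
Col1a2 (chr6:4505368-4505617, plus strand): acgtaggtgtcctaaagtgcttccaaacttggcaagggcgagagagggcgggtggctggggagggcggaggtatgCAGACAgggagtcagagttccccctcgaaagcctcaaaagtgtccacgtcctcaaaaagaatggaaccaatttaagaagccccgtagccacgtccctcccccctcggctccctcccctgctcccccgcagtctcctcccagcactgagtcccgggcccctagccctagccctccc
Sparc (chr11:55420081-55420330, minus strand): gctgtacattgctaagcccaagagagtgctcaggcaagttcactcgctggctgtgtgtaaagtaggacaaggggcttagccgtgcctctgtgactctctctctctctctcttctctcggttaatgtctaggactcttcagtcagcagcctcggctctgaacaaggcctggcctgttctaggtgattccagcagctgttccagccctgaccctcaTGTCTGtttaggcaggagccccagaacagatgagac
Col3a1 held 2 matches and Col1a2 and Sparc 1 each. A match stood in 17.1% of all 32851 RefSeq promoter windows and in 13.1% of those of measured genes. Among windows of the measured genes of each list, it stood in 5 of 17 for collagens (29.4%) and 6 of 20 for elastic fibre genes (30%). By gene, 5 of 15 collagen and 5 of 12 elastic fibre genes held it in at least 1 window. A match to 6 letters is a description and not a binding site.

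Genes of sterol synthesis stood lower in cKO smooth muscle. Of 23 measured members of the list of sterol and fatty acid synthesis, 13 were at least 1.5-fold lower (background 2.48%) and 0 higher, with a median of -0.60, and 22 lay below 0. Of the 13, 8 stayed past 1.5-fold under every alternative. Sqle, the squalene epoxidase, had 186 UMIs in cKO and 335 in control smooth muscle, or 16.3 and 32.3 CPM, a log2 ratio of -0.98 (-1.25 to -0.72). Insig1, which holds the SREBP escort protein in the endoplasmic reticulum and is itself an SREBP target, stood at 21.5 and 39.6 CPM (-0.88, -1.12 to -0.65). Msmo1, a sterol demethylation enzyme, stood at 25.5 and 46.2 CPM (-0.86) and Cyp51, the lanosterol demethylase, at 21.3 and 37.4 CPM (-0.81). All of these stood lower in cKO cells by intervals that exclude 0.

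Smaller ratios were found for other steps of the route. Fdps had a ratio of -0.61, Idi1 -0.60 and Hmgcs1 -0.60 (49.98 and 75.9 CPM). The factors themselves stood at -0.36 for Srebf2, which favours sterol genes, and 0.01 for Srebf1, which favours fatty acid genes. In thinned cells Sqle was found in 7.54% (5.88 to 9.50) of cKO and 15.3% (12.7 to 18.1) of control cells, against 2.97 and 2.49% of leukocytes. In fibroblast-gated cells the sterol genes stood near 0, with Sqle at 0.06, Msmo1 at -0.00, Cyp51 at -0.09 and Insig1 at 0.20, and the list had a median of -0.08 there. In endothelial- and leukocyte-gated cells the list medians were -0.34 and -0.06. Insig1 stood at -0.63 and -0.81 in these gates, Sqle at 0.07 and 0.23 and Msmo1 at -0.07 and 0.22.

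The lowest ratios of the list belonged to 3 fatty acid genes, and markers of fat cells were lower beside them. Fasn, the fatty acid synthase, stood at 32.1 and 139.7 CPM (-2.12, -2.29 to -1.96) and Scd1, the stearoyl-CoA desaturase, at 16.9 and 130.7 CPM (-2.95), and the elongase Elovl6 had 47 and 98 UMIs (-1.19). Other genes of fatty acid synthesis were within 1.5-fold, with Acly at -0.53, Acaca at -0.48 and Scd2 at -0.40. Fasn and Scd1 were lower too in fibroblast-gated (-1.81 and -1.40), endothelial-gated (-2.32 and -2.13) and leukocyte-gated cells (-2.82 and -3.00). The naming rule set Scd1 among genes of other cells, at under 0.2 of its level in another class. Of 7 measured adipocyte markers 6 were lower in the smooth muscle gate (background 2.48%) and 0 higher (1.28%), with a median of -1.64. The brown fat gene Ucp1 had 18 and 314 UMIs and Car3 22 and 336, none of the markers was at 0 in both libraries, and summed levels were 437 and 598 CPM, most of it Fabp4 (4599 and 4693 UMIs). No UMI of Adipoq, Plin1, Cfd, Car3, Ucp1, Cidec, Cidea and Retn was found in 797 of 983 cKO cells but in only 190 of 792 control cells. Among those cells, a set chosen after the markers had been seen to differ, the ratios were -2.06 for Fasn, -1.06 for Sqle, -1.01 for Cyp51, -0.88 for Msmo1 and -0.81 for Insig1, whereas Hmgcs1 stood at -0.27, and 9 members were lower. The part of fat cell RNA in the other values was not tested.

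Upstream sequences of 2 sterol genes are given because the sterol genes stood lower together. They are the 250 bases before the RefSeq start (GRCm38.p6), 5′ to 3′ on the strand of the gene, with capitals for TCACNCCAC, a core of the sterol regulatory element, and for CCAAT on this strand or, as ATTGG, on the opposite strand, the box bound by NF-Y, a known partner of SREBP. Both strands were searched, and the motifs share no letters.
Hmgcs1 (chr13:119690101-119690350, plus strand): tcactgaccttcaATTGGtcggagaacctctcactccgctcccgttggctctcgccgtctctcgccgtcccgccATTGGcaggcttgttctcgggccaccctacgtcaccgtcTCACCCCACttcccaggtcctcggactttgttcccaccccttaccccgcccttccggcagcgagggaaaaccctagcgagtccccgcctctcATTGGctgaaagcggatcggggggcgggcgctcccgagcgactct
Insig1 (chr5:28071162-28071411, plus strand): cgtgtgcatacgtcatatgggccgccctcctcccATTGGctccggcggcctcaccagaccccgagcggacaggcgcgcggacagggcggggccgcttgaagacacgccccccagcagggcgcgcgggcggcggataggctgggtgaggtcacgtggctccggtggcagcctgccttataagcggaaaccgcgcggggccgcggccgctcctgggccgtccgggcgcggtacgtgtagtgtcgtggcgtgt
Hmgcs1 held 1 match to TCACNCCAC and 3 to CCAAT, and Insig1 held 1 match, to CCAAT. Over all windows TCACNCCAC stood in 1.05% and CCAAT in 33.8%. Of 19 windows of measured genes of the list, 1 (of Hmgcs1) held the former (5.26%) and 13 the latter (68.4%). By gene, 1 and 12 of 15 held them in at least 1 window. Windows for Eln, Lox, Col1a1, Sqle, Scd1 and Fdps were not used here.

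Most components of the pathway that Smad4 serves were within 1.5-fold, as were most measured genes. Of 32 measured components of TGF-beta and BMP signalling 0 were lower (background 2.48%) and 2 higher (1.28%), with a median of -0.10. At those shares a list of 32 would hold few or none, so these counts say little about the pathway. The 2 higher were Fst, follistatin, an extracellular inhibitor of activins and BMPs (22.4 and 12.8 CPM, 0.81, 0.50 to 1.12), and Bmp6. Bmp6, a BMP ligand, had 98 and 51 UMIs (0.80). Neither gene stayed past 1.5-fold under every alternative. In cells of 5000 to 15000 UMIs their ratios were 0.42 and 0.43. Over the alternatives Fst ran from 0.42 to 1.62, and in thinned cells it was found in 2.97% of cKO and 3.39% of control cells, with 42 of its UMIs in 1 cKO cell. The receptors Tgfbr1 and Tgfbr2 had ratios of -0.03 and -0.21, the receptor-activated Smad2 and Smad3 -0.28 and 0.12, and the ligands Tgfb2 and Tgfb3 0.11 and 0.34.

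Known targets of BMP stayed within 1.5-fold, and several TGF-beta targets that encode matrix proteins were lower. Of 12 measured BMP targets, 0 were past 1.5-fold in either direction (background 3.76%) and the median was -0.07. At that share a list of 12 would hold few or none, so this count says little about BMP targets. The helix-loop-helix inhibitors Id1, Id2 and Id3 had ratios of -0.35 (55.4 and 70.5 CPM), -0.06 and -0.19 (708 and 809 CPM), and the inhibitory Smad6 and Smad7 0.15 and -0.03. Of 22 measured TGF-beta targets 5 were lower (background 2.48%) and 1 higher (1.28%), with a median of -0.24. The lower ones were Eln, Col3a1, Col1a1, Col1a2 and Cdkn1a, a cell cycle inhibitor (55.9 and 92.2 CPM, -0.72), and the higher was Pdgfb (231 and 128 UMIs, 0.71). Of the 5, Eln and Col3a1 stayed past 1.5-fold under every alternative, whereas Col1a1, Col1a2 and Cdkn1a reached -0.58, -0.55 and -0.33. Other targets were closer to 0: Pmepa1, a feedback inhibitor, stood at 1025 and 1060 CPM (-0.05) and Ccn2 at 1216 and 1414 CPM (-0.22).

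**Figure D3:**
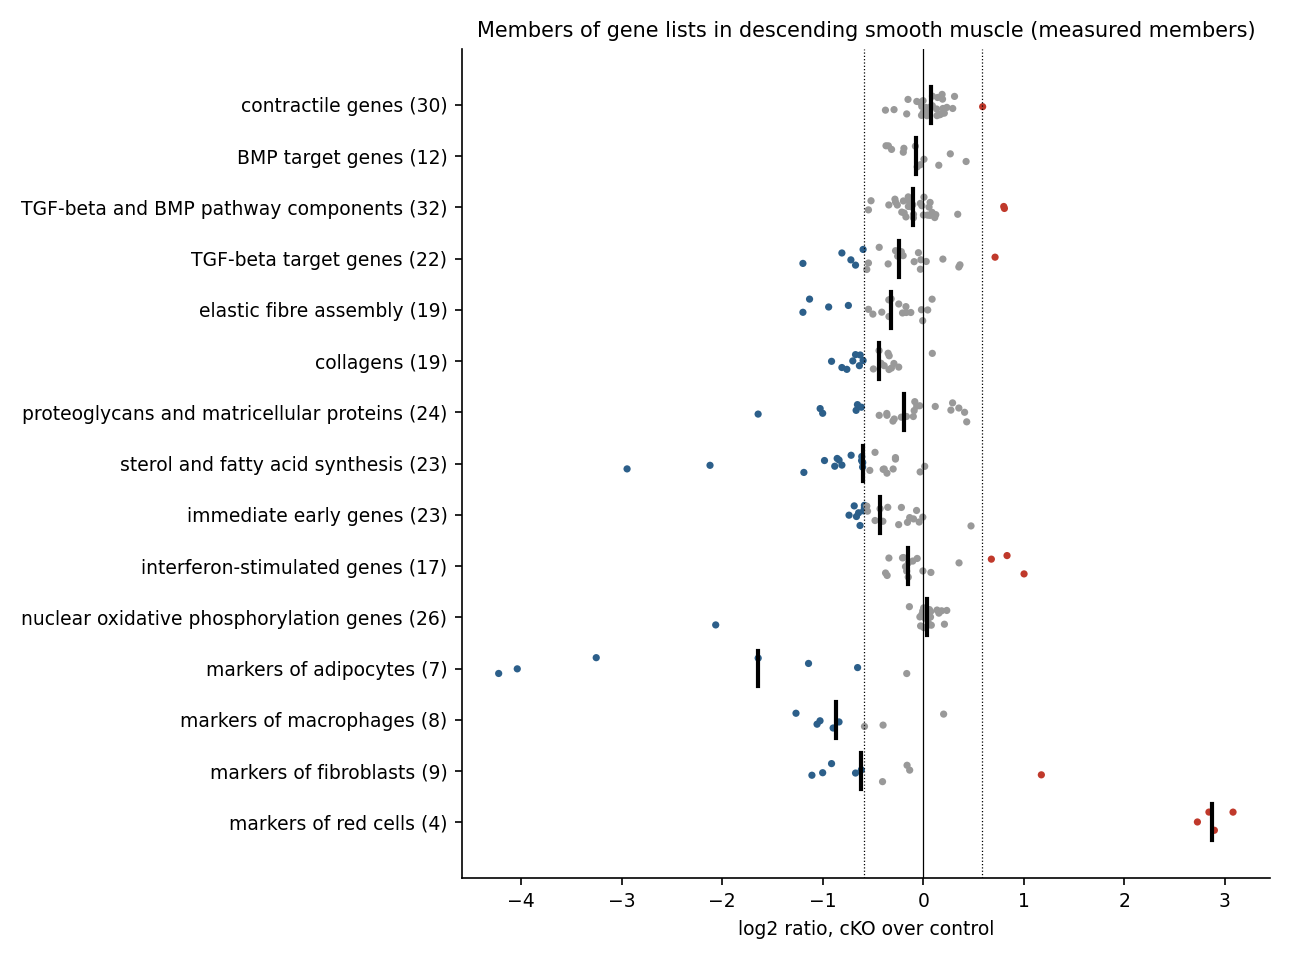
Log2 ratio of cKO over control (x axis) for each measured member (point) of 15 gene lists in descending smooth muscle, with the number measured in brackets and a bar at the median; red and blue points passed 1.5-fold (dotted lines). Contractile and oxidative phosphorylation genes cluster near 0, the sterol, collagen and immediate early lists lie mostly below 0, and the red cell markers lie near 3.

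Transcripts of immediate early genes respond to a signal within minutes. Of 23 measured, 8 were at least 1.5-fold lower (background 2.48%) and 0 higher (1.28%), with a median of -0.43. Of the 8, 4 stayed past 1.5-fold under every alternative, and Fosb, Egr1, Ier2 and Nr4a2 did not. Fos stood at 752 and 1193 CPM (-0.66, -0.70 to -0.62), Jun at 481 and 752 CPM (-0.64), Nr4a1 at 135 and 225 CPM (-0.74) and Egr1 at 401 and 602 CPM (-0.59). In fibroblast-gated cells the list had a median of -0.32 and in leukocytes, where 5.17% of genes were lower and 2.97% higher, -0.44. With cells of at least 1000 genes and under 5% mitochondrial UMIs the smooth muscle median was -0.54. Of 17 measured glucocorticoid-induced genes 5 were lower (background 2.48%) and 0 higher (1.28%), with the metallothionein Mt2 at 24.7 and 53.1 CPM (-1.10, -1.31 to -0.89) and Mt1 at 227 and 360 CPM (-0.67). Pdk4, a kinase that shuts off pyruvate oxidation, had 117 and 304 UMIs (-1.51), but a single control cell held 107 of them, and without the highest cell of each library the ratio was -0.95.

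The highest ratio belonged to Vwc2 (ENSMUSG00000050830), which encodes brorin, a secreted BMP antagonist best known from the nervous system. It had 1001 UMIs in 423 cKO cells and 1 UMI in 1 control cell, or 87.8 and 0.0963 CPM, a log2 ratio of 9.25 (7.35 to 15.14). No single cKO cell held more than 12 of these UMIs. In thinned cells it was found in 28% (25.05 to 31.1) of cKO and 0.141% (0.00358 to 0.786) of control smooth muscle, and in 0.811 and 0% of leukocytes. Fibroblast-gated cells held 5.63 and 0.346 CPM. Vwc2 lies on chromosome 11 at 11114223 to 11268931 (GRCm38, GENCODE M21, plus strand), and the 1 measured gene within 1 Mb of its start had a ratio of -0.39. In smooth muscle of the arch it stood at 90.7 CPM in the cKO and 18.3 CPM in the control library (2.31).

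Gabra3, a GABA-A receptor subunit, was nearly as sharply divided. It had 829 UMIs in 402 cKO cells and 8 UMIs in 7 control cells, or 72.7 and 0.770 CPM, a log2 ratio of 6.47 (5.58 to 7.78). In thinned cells it was found in 26.9% of cKO and 0.283% of control smooth muscle. The naming rule set it among genes of other cells, since its control level was under 0.2 of that in control fibroblasts (7.15 CPM), but in the cKO library smooth muscle stood above fibroblasts (49.96 CPM). Its neighbour Gabre, another GABA-A receptor subunit, stood at 21.7 and 5.39 CPM (2.00, 1.59 to 2.46) in smooth muscle and at 17.3 and 3.46 CPM in fibroblasts. Of 8 measured genes within 1 Mb of Gabra3 on the X chromosome, Gabre was past 1.5-fold higher (background 1.28%). Nsdhl, a sterol gene, was lower (-0.61, background 2.48%), and the 8 had a median of -0.02.

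Stbd1, a protein that tethers glycogen for delivery to lysosomes, was higher in every class of cell looked at. It had 1377 UMIs in 572 cKO cells and 280 in 212 control cells, or 120.7 and 27.0 CPM, a log2 ratio of 2.16 (1.98 to 2.35). In thinned cells it was found in 39.1% (35.8 to 42.4) and 12.02% (9.72 to 14.7). The ratio was 2.99 in fibroblast-gated, 4.60 in endothelial-gated and 0.94 in leukocyte-gated cells and 1.61 in smooth muscle of the arch. Scarb2, a lysosomal membrane protein encoded beside it on chromosome 5, stood at 161.5 and 86.6 CPM (0.90, 0.78 to 1.02), with 0.88 in fibroblasts. Stbd1 runs from 92603041 to 92606579 and Scarb2 from 92441314 to 92506833. Of the 13 measured genes within 1 Mb of Stbd1, Scarb2 was higher (background 1.28%) and Cdkl2 lower (2.48%), and the median was 0.08.

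Some other named genes also had called genes beside them, and the plot of neighbouring genes shows only some of the windows. Other windows held few called genes: 1 of 48 around Fasn, 1 of 58 around Cacna1h and 0 of 25 around C1qtnf6. Around Gbp2, a guanylate-binding protein of the interferon response (37.4 and 20.99 CPM, 0.83), 4 of 8 measured genes within 1 Mb were higher against a background of 1.28%: Gbp5 (1.32), Gbp3 (1.00), Gbp7 (0.68) and Kyat3 (0.66). Members of the Gbp family are alike in sequence, so how reads were split among them is uncertain. The list of 17 measured interferon-stimulated genes had 3 higher, all of them Gbp genes, 0 lower and a median of -0.15. Gbp2 did not stay past 1.5-fold under every alternative. Near Airn, a non-coding RNA that lies antisense to Igf2r (24.3 and 13.96 CPM, 0.80), Slc22a2 (0.67) and Mrgprh (0.78) were also higher among 14 measured. Without knowledge that counting used the strand, the Airn value is uncertain.

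**Figure D4:**
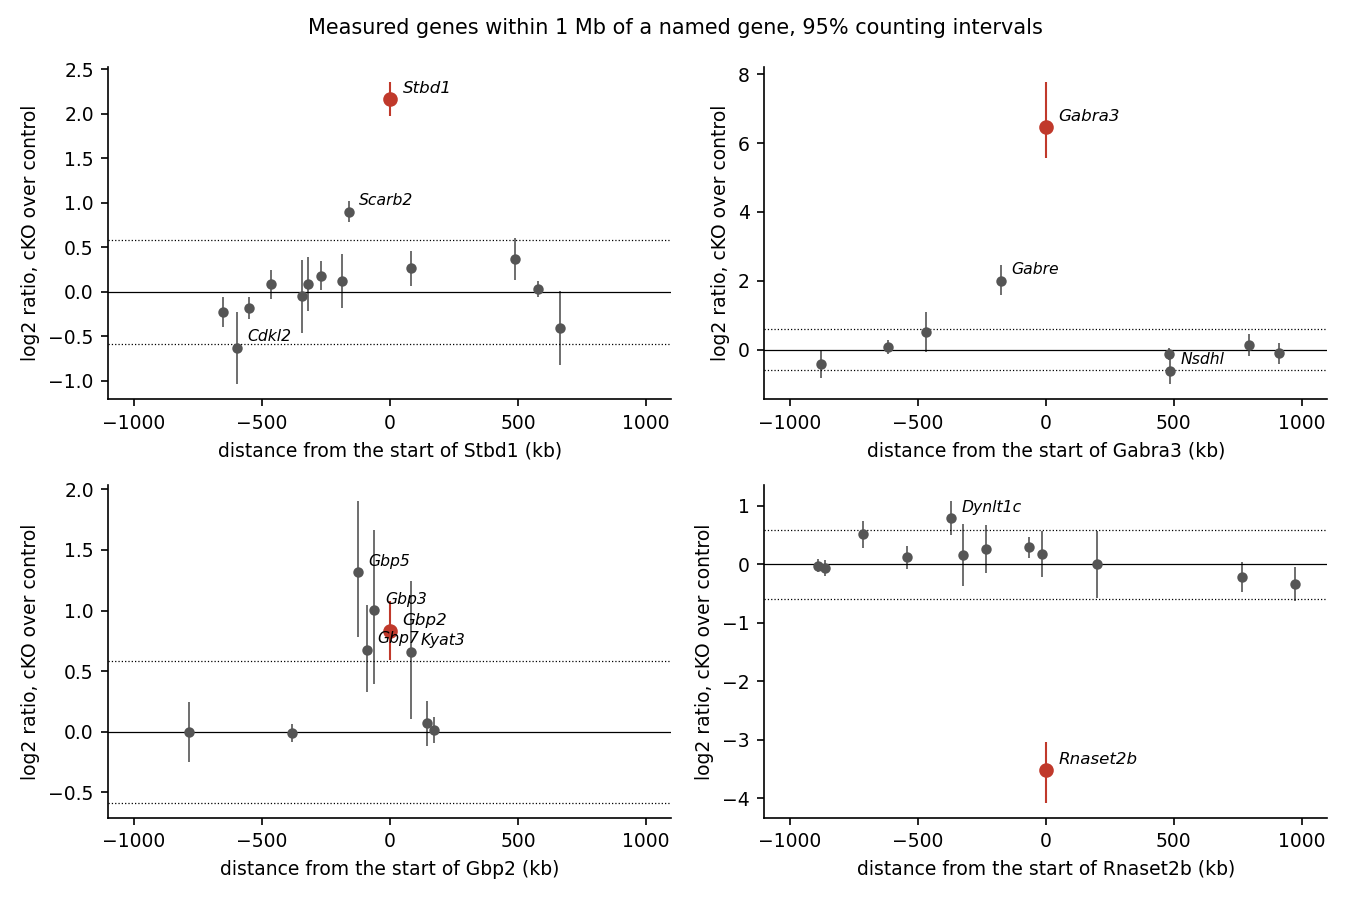
Log2 ratio of cKO over control (y axis, bars are 95% counting intervals) of measured genes by distance in kb (x axis) from the start of Stbd1, Gabra3, Gbp2 and Rnaset2b (red points); dotted lines mark 1.5-fold and genes past it are named. Scarb2, Gabre and 4 genes beside Gbp2 are higher, and most other genes of the windows lie between the lines.

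The lowest ratio of the naming rule was that of Rnaset2b, a lysosomal ribonuclease gene with a near-identical copy. It had 35 UMIs in cKO and 369 in control smooth muscle (-3.51), and between -4.11 and -3.75 in the fibroblast, endothelial and leukocyte gates. Its copy Rnaset2a stood at 208 and 146 CPM (0.51), and both copies summed to 211 and 181 CPM (0.22, 0.13 to 0.31). How reads were shared between the copies is uncertain. Dynlt1c, a dynein light chain gene on the same chromosome, had a ratio of 0.79, but it also has close copies, and the 4 summed to 74.7 and 59.4 CPM (0.33).

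Several signalling genes were higher at low to moderate levels. Sema3e, a guidance ligand for plexin D1, had 300 and 50 UMIs in 170 and 38 cells (2.44, 2.01 to 2.91), a ratio of 0.18 in fibroblasts and 2.44 in the arch. Adcy1, an adenylyl cyclase stimulated by calcium and calmodulin, stood at 63.8 and 26.8 CPM (1.25, 1.05 to 1.46) and was found in 23.1 and 10.0% of thinned cells. In the arch Adcy1 stood at 92.8 and 2.46 CPM (5.23). S1pr3, a sphingosine 1-phosphate receptor, stood at 47.7 and 26.2 CPM (0.86), Cacna1h, a T-type calcium channel, at 27.3 and 15.6 CPM (0.80), and Nrtn, the neurotrophic factor neurturin, at 61.6 and 37.5 CPM (0.72). Myl1, a skeletal muscle light chain, had 272 and 133 UMIs (0.89), the osmolyte transporter gene Slc5a3 a ratio of 0.75, the repressor E2f6 0.72 and Igsf9 0.72. Of these, 5 did not stay past 1.5-fold under every alternative, with lowest ratios of 0.40 for Slc5a3, 0.42 for E2f6, 0.54 for Nrtn, 0.54 for S1pr3 and 0.57 for Cacna1h, and S1pr3 ran up to 1.23. Markers of striated muscle were higher beside Myl1, 3 of 6 measured (background 1.28%) and 0 lower (2.48%), with a median of 0.68. They were Acta1, Actc1 (81 and 36 UMIs, 1.02) and Ttn (96 and 50 UMIs, 0.80), and the list of 12 summed to 54.7 and 33.6 CPM with 1 marker at 0 in both libraries. Their part in the Myl1 value was not tested.

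Genes of other fates were sparse. Sox9, a chondrogenic transcription factor, had 102 UMIs in 66 cKO cells and 23 in 18 control cells (1.99, 1.35 to 2.73), while the cartilage proteoglycan Acan stood lower (-0.67) and 10 measured genes of the chondrogenic and osteogenic list had a median of -0.31. Acta1, skeletal actin, had 177 UMIs in 48 cells and 22 in 10 cells (2.84), and it is a near relative of Acta2, so shared reads are possible. Of 18 modulated smooth muscle genes 3 were higher (background 1.28%) and 3 lower (2.48%) with a median of -0.05. The higher were Vcam1 (0.59), Lgals3 (70.8 and 45.5 CPM, 0.64) and Timp1, whose ratio of 0.80 rested on 1 cKO cell with 183 of 310 UMIs and was -0.07 without the highest cells. None of these 3, nor Rgs5, stayed past 1.5-fold under every alternative. Rgs5 stood at 731 and 483 CPM (0.60, 0.55 to 0.65) in the gate. The other 9 pericyte markers were within 1.5-fold, from -0.50 for Steap4 to 0.42 for Higd1b, and the list of 10 had a median of 0.14.

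The remaining lowest genes were of mixed kinds. Casq1, the skeletal calsequestrin, stood at 31.7 and 75.6 CPM (-1.25, -1.44 to -1.07). C1qtnf6 stood at 23.7 and 51.4 CPM (-1.12). Pcsk5, a proprotein convertase, stood at 93.3 and 167.8 CPM (-0.85, -0.96 to -0.74), Agpat2, an enzyme of triglyceride synthesis, at 17.7 and 33.0 CPM (-0.90) and Lrrcc1, a centrosome protein, at 16.0 and 29.6 CPM (-0.88). The plot of the 30 named genes sets these ratios beside those of other cells of the 2 libraries and of the arch.

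**Figure D5:**
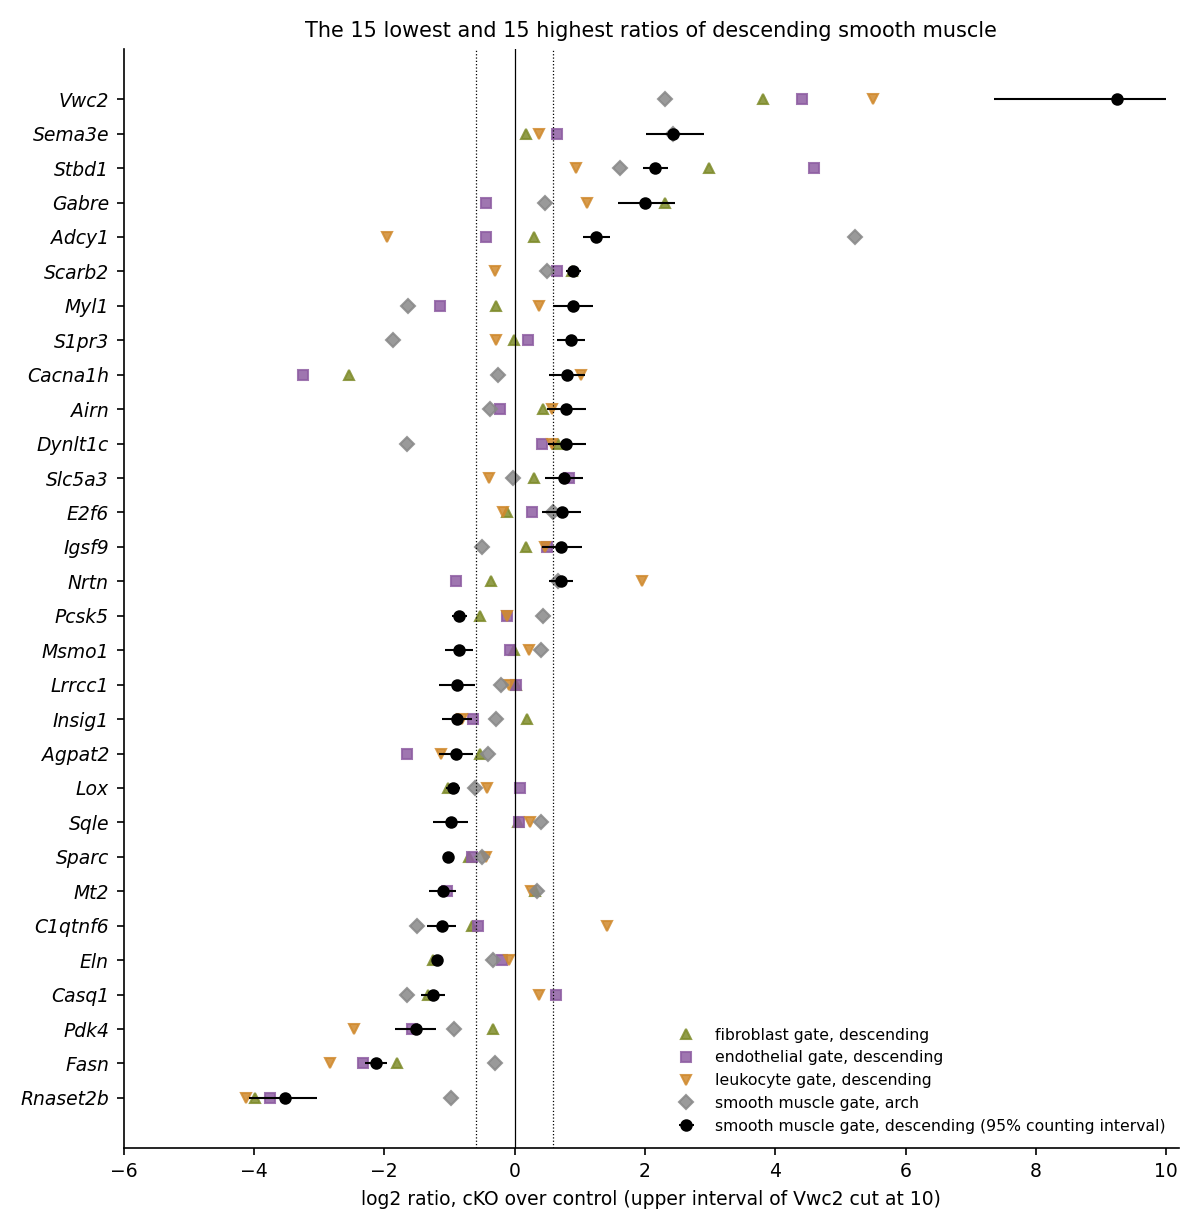
Log2 ratio of cKO over control (x axis) for the 15 highest and 15 lowest named genes of descending smooth muscle (black, bars are 95% counting intervals), beside fibroblast-, endothelial- and leukocyte-gated cells of the same libraries and smooth muscle of the arch. Stbd1, Fasn and Rnaset2b lie on 1 side of 0 in every class, whereas Sqle and Msmo1 lie near 0 in fibroblasts and endothelium.

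RNA of other cells was found in the gate in unequal amounts. Of 8 measured macrophage markers 5 were lower (background 2.48%) and 0 higher (1.28%), with summed levels of 84.8 and 159.9 CPM, and Lyz2 had 362 and 672 UMIs. Red cell markers were higher, 4 of 4, with a median of 2.87, but 1 cKO cell held 5626 of the 6690 Hbb-bs UMIs, and without the highest cells Hbb-bs had a ratio of 0.16. Slpi (467 and 45 UMIs) rested on 1 cKO cell with 433. Of the 396 genes past 1.5-fold, 33 were no longer past it without the highest cell of each library, 13 higher and 20 lower. Of the genes past 1.5-fold, 52 higher and 95 lower stood in the gate at under 0.2 of their level in another class of cell, as did 703 of all measured genes. Either library could meet this limit. A gene low in smooth muscle of 1 library could thus be both called and counted here, so no excess is read from these counts.

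Many lists had few or 0 genes called, where 3.76% of all measured genes were past 1.5-fold in either direction. At that share a list of this size would hold few or none, so these counts say little about its members. Nuclear oxidative phosphorylation genes had 1 lower of 26, Cox7a1 (49 and 188 UMIs), and a median of 0.04. Heat shock and unfolded protein response genes had 0 called of 18 and 19, with medians of 0.06 and -0.06. Hox genes, which record position along the body, had 0 called of 14 measured, with medians of 0.05 for groups 1 to 5 and 0.21 for groups 6 to 10. Notch pathway genes had 0 called of 12 and adhesion genes 0 of 24. Circadian clock genes had 1 higher, Cry1, and 1 lower, Nfil3, of 18.

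Arch smooth muscle, chosen by the same gate in 847 cKO and 1845 control cells, gave other values for the leading genes. There 14.2% of measured genes were at least 1.5-fold lower and 6.55% higher. The cKO arch library was counted against a shorter list of features (28693, against 32285 in the others), and the difference between the regions was not tested. Eln stood at 2328 and 2916 CPM in the arch (-0.32), Sparc at 3272 and 4607 CPM (-0.49) and Lox at 202 and 306 CPM (-0.60). Sqle had an arch ratio of 0.41, Msmo1 0.40 and Insig1 -0.28, and the sterol and fatty acid list had a median of -0.20 with 3 members lower.

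Cells of the gate varied among themselves beyond counting error in several of these genes. In thinned cells the ratio of variance to mean, which is 1 for pure counting error, was 24.004 in cKO and 35.95 in control cells for Mgp, a calcification inhibitor, at means of 14.7 and 19.5 UMIs. For Eln it was 11.5 and 20.3 at means of 8.43 and 19.9 UMIs. Rgs5 had 12.03 and 10.199, Fos 10.1 and 12.8, and Itga8, with like means of 11.1 and 13.9, had 10.05 and 10.25. Spread rises with the mean, so no difference in spread is read from Eln.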

How the data were processed

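Single-cell 5′ libraries of the cKO and control descending thoracic aorta were compared, and both arch libraries were used beside them. The submitters' processing notes name Cell Ranger 6.1.1 and the mm10 build, and the matrix headers give 6.1.2. What the authors deposited are unnormalized UMI counts of each gene in each barcode, with the annotation release not given in the sources used here.

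Barcodes with at least 500 genes and under 10% mitochondrial UMIs were kept and smooth muscle was gated as described. Fibroblast-gated cells had at least 1 Pdgfra and 5 Dcn UMIs, endothelial-gated cells at least 2 Pecam1 and 1 Cdh5, and leukocyte-gated cells at least 1 Ptprc, each with 0 UMIs of the other classes' markers and under 5 of Myh11. Doublets were not removed beyond the gate. Removing the highest Scrublet scores, at a rate set by the number of barcodes, was an alternative, which took 371 cKO and 323 control cells, 47 and 29 of them in the gate. Its automatic threshold had called 2.10 and 0.0384%.

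Counts were summed over cells and divided by all UMIs of the gated cells to give CPM. A prior of 0.5 UMI was added before taking log2 ratios. Intervals were exact conditional for ratios and Clopper-Pearson for shares of cells. Shares were taken after thinning to 5000 UMIs. The scripts were tested on simulated data. Python 3.11.15, numpy 2.4.6, scipy 1.17.1, pandas 2.3.3 and scanpy 1.11.5 were used. Gene positions came from GENCODE M21 and matched 10537 of 10542 measured genes.

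Genes were named by a rule: the 15 highest and 15 lowest ratios among measured genes that reached 20 CPM in a library. Left out are transcripts with no gene name, and genes of mitochondria, ribosomal proteins, haemoglobins and immune receptors. Also left out are genes under 0.2 of their level in another class of cell. Of these, the 5 lowest were Ucp1, Car3, Cox8b (-3.95), Scd1 and Gpd1 (-2.42), and the 5 highest Gabra3, Slpi, Pi16, Plat (0.87) and Gbp2. The rule adds the 4 members of each of 43 lists furthest from 0, the first 6 contractile genes and Smad4. Some list members are not reported here. Members and lists were chosen with earlier results of these data known. Genes named outside the rule were picked for their role or their place beside a named gene, after their values were seen. Alternatives changed the scaling, the gene, cell and gate filters, the prior, doublets, cell weights and depth.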

Additional observations from a re-analysis of the deposited data

Results flagged for a closer look

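Among the 15 highest and 15 lowest named genes, 3 passed 1.5-fold in opposite directions in smooth muscle of the descending aorta and of the arch. Others had counting intervals on opposite sides of 0 but arch ratios within 1.5-fold. They were Mt2 (0.34 in the arch), Sqle (0.41), Msmo1 (0.40), Pcsk5 (0.44), Airn (-0.37) and Igsf9 (-0.50). Pi16, set apart as a gene of other cells, had 1.17 in the descending aorta and -2.06 in the arch. Myl1, a skeletal muscle light chain, had a log2 ratio of 0.89 (0.59 to 1.21) in the descending aorta and -1.64 (-2.44 to -0.97) in the arch, where it stood at 1.72 CPM in the cKO and 5.46 CPM in the control library. S1pr3, a sphingosine 1-phosphate receptor, had 0.86 (0.65 to 1.08) and -1.86 (-2.47 to -1.34), at 2.80 and 10.3 CPM in the arch. Dynlt1c had 0.79 (0.51 to 1.09) and -1.65 (-2.14 to -1.21), at 4.16 and 13.2 CPM in the arch, and reads of its close copies may be split. Each region has 1 library per genotype, so the difference between the regions was not tested, and the cKO arch library was counted against another list of features.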

How the results depend on the processing

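No paired analysis was possible because each group has 1 library. Counts of genes past 1.5-fold depended on the minimum level. With at least 20 UMIs per gene, 495 were higher and 720 lower, and with at least 400 UMIs, 37 and 83. In cells of 5000 to 15000 UMIs 76 were higher, and in cells without adipocyte marker UMIs, a set chosen after seeing the data, 208. Median-of-ratios scaling, which shifts all ratios by the same amount, gave 158 higher and 209 lower. The TGF-beta target median was -0.13 in thinned cells and the immediate early median -0.54 with 1000 genes and under 5% mitochondrial UMIs. The cause of these changes was not tested, beyond the larger or smaller number of genes or cells that each setting admits.

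Of 278 listed or named genes, 117 were past 1.5-fold, and 70 of these stayed past it under every alternative that measured them. A further 161 were within 1.5-fold, and 43 of those crossed 0 under at least 1 alternative. Among genes past 1.5-fold 10 crossed 0, as did 2 list medians. In cells of 5000 to 15000 UMIs these were Cd74 (-0.16), Hba-a1 (-0.27), Hba-a2 (-0.32), Hbb-bs (-0.18), Pi16 (-0.30) and the red cell median (-0.23). With the highest doublet scores removed they were Cd74 (-0.59), H2-Aa (-0.12), Hbb-bs (-0.056), Hbb-bt (-0.17), Pi16 (-1.01) and the red cell median (-0.0028). With up to 1 UMI of Ptprc, Pecam1 and Pdgfra they were Cd74 (-0.15) and H2-Aa (-0.087), and in cells without adipocyte marker UMIs -0.28 and -0.35. Without the highest cell of each library, also chosen after seeing the data, they were Hbb-bt (-0.033), Slpi (-0.22), Timp1 (-0.066) and Ube2c (0.11), for which 1 control cell held 98 of 103 UMIs. Timp1 stood at -0.064 with at least 10 Myh11 and 50 Acta2 UMIs, and the chondrogenic and osteogenic median at 0.068 with at least 20 UMIs per gene.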

Other observations

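A few gene groups outside the lists stood out among moderately abundant transcripts and were chosen after their values were seen. Gdf10, a TGF-beta family ligand, had 257 UMIs in cKO and 724 in control smooth muscle (-1.63), with a ratio of -0.23 in fibroblast-gated cells and 0.71 in smooth muscle of the arch. The naming rule set Gdf10 among genes of other cells, at under 0.2 of its level in another class. The part of RNA of such cells in the Gdf10 value was not tested. Pi15, a secreted peptidase inhibitor of the arterial wall, had 3486 and 5285 UMIs (-0.73), and -0.21 and -1.17 in the same places. Apoe had 1337 and 2003 UMIs (-0.72), with -0.09 in fibroblasts and -2.06 in the arch. Apoe stood in another class of cell at 45 times its smooth muscle level. In the gate 5 of 8 macrophage markers were lower (background 2.48%), and their part in the Apoe value was not tested.

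Above 0 at moderate levels were the somite transcription factor Tcf15, with 692 and 356 UMIs (0.82) and a fibroblast ratio of 1.82, the guidance ligand Sema3d, with 815 and 505 UMIs (0.56), and Rgs4, a regulator of G protein signalling, with 1667 and 1108 UMIs (0.45). Of these, Tcf15 was past 1.5-fold. The naming rule set Tcf15 among genes of other cells, at under 0.2 of its level in another class. The part of RNA of such cells in the Tcf15 value was not tested. In smooth muscle of the arch the ratios of Tcf15, Sema3d and Rgs4 were -1.12, -0.11 and -1.36. The antigen presentation genes Cd74 and H2-Aa stood at 0.67 and 0.67, but 1 cKO cell held 275 of 600 Cd74 UMIs and 142 of 293 H2-Aa UMIs.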
